A study of Homo sapiens with 4 samples.

Results

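Fucosyltransferases are the enzymes that attach the sugar fucose to glycans and proteins. The 10 genes described here, FUT1, FUT2, FUT3, FUT4, FUT6, FUT8, FUT10, FUT11, POFUT1 and POFUT2, were taken by name from the 58735 gene identifiers of a single table of read counts, after the Ensembl identifiers had been matched to symbols, and all 10 were found. Its 4 RNA-seq libraries come from wild-type A549, by its label a tumor cell line, known as a human lung adenocarcinoma line. Cells were stained for the adhesion glycoprotein ICAM1 and sorted by fluorescence, which gave 2 libraries of an ICAM1-high subset and 2 of an ICAM1-low subset, called the high and the low subset here. The labels name no drug or other agent, and they do not tell whether 2 libraries of 1 subset were separate cultures, so that errors and tests cover only the spread between libraries and this spread may be technical. The family was chosen by log2 fold changes between these same subsets, and its genes by name, so their differences are given as descriptions without a test. Of the 10 genes, 8 were abundant enough for the fit across all genes.

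Fucose is donated by GDP-fucose, which cells make from GDP-mannose or salvage from free fucose and carry into the Golgi apparatus and the endoplasmic reticulum. FUT1 and FUT2 add fucose in alpha-1,2 linkage and make the H antigen, the precursor of the A and B blood group antigens. FUT3, FUT4 and FUT6, with FUT5, FUT7 and FUT9, add fucose in alpha-1,3 or alpha-1,4 linkage and make the Lewis antigens, among them sialyl Lewis x, which endothelial selectins bind. FUT8 adds the core fucose of N-glycans, and POFUT1 and POFUT2 attach fucose directly to protein, POFUT1 to the EGF-like repeats of Notch receptors and other proteins and POFUT2 to thrombospondin type 1 repeats. FUT10 and FUT11 reside in the endoplasmic reticulum and are now also named POFUT3 and POFUT4.

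Library totals were 16272591 to 17638647 counts, so that 3 counts, the upper limit that a count of 0 allows, correspond to 0.161 to 0.196 CPM (the count in 1000000 counts) in a library. This limit covers counting error only. Levels are given as CPM scaled between libraries by TMM, the trimmed mean of M-values. ICAM1, the gene of the sorted protein, reached 113 ± 3.60 CPM (SD, n = 2) and 4.75 ± 0.202 CPM (n = 2) in the high and low subsets. A homozygous deletion in A549 removes CDKN2A, CDKN2B and MTAP. These genes nevertheless had 2223, 356 and 922 counts over both libraries of the high subset, and 0, 0 and 9 counts over those of the low subset. The label A549 is thus contradicted at these genes in both high libraries, and every comparison rests on them.

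Markers of lung epithelium and of other cell types differed between the subsets too. Summed levels of 14 lung epithelial markers were 10479.8 to 10620.7 CPM in the high subset, against 14929 to 15148 CPM in the low subset. This direction was set by ALDH1A1, the most abundant, at 5417 and 11321 CPM. Without it the sums were 5052 to 5214 CPM in the high subset, against 3688 to 3747 CPM in the low subset. These sums in turn rested largely on KRT8, at 3074 and 1290 CPM in the high and low subsets. KRT7 went the other way, at 603 and 1245 CPM, so the sums give no common direction of the epithelial markers. NKX2-1, a defining factor of lung epithelium, had 5 and 4 counts in the high and low subsets, and SFTPA1 had 0. The 14 leukocyte markers summed to 31.0 to 31.5 and 20.1 to 21.8 CPM, led by CD14 at 18.5 and 9.43 CPM, with PTPRC and CD3E at 0 in all libraries. The 14 endothelial markers summed to 52.6 to 57.5 and 37.1 to 40.6 CPM, led by EGFL7 at 25.8 and 29.4 CPM. Among them PECAM1 had 133 and 26 counts, ENG 630 and 108, CDH5 64 and 1, and ERG 89 and 0, while VWF, KDR, TEK and TIE1 had at most 5 counts in any library. The 14 fibroblast markers summed to 305 to 314 and 224 to 244 CPM, led by S100A4 at 224 and 184 CPM. Among them COL1A1 had 1056 and 126 counts, LUM 99 and 8, and FAP 42 and 1, while COL1A2 and COL3A1 had at most 2 counts in either subset and POSTN and DPT had 0. Of the lung epithelial, leukocyte, endothelial and fibroblast markers, 8, 5, 6 and 9 were tested; 4, 3, 4 and 7 rose in the high subset and 3, 1, 1 and 0 fell, beside 30.4% and 29.4% of all genes tested. Of these rises, 0, 1, 2 and 3 (LAPTM5; CDH5 and ERG; LUM, PDGFRB and FAP) had passed the filter on low counts through the high subset alone and could hardly come out otherwise. The part of RNA from other cells in the values below was not tested. In sorted bulk samples, fewer cells of a type and less RNA per cell cannot be told apart.

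FUT1 and FUT2, the H antigen synthases, differed in opposite directions. FUT1 (ENSG00000174951, chromosome 19, 48748011 to 48755390, GRCh38) was counted 12 and 19 times in the high subset, against 142 and 198 times in the low subset. Both ICAM1-low libraries were thus far above both ICAM1-high libraries. Its level was 0.839 ± 0.276 CPM (SD, n = 2) in the high subset, against 11.0 ± 2.71 CPM (n = 2) in the low subset, which is 13.0-fold lower in the high subset (log2 fold change -3.70, SE 0.25). Counting FUT1 itself, 3 of the 16250 genes tested had a log2 fold change at least this far below 0.

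FUT2 (ENSG00000176920, chromosome 19, 48695971 to 48705950) is the H antigen synthase of secretory epithelia. It had 22 and 27 counts in the high subset, against 2 and 14 counts in the low subset. The subsets did not overlap, but the low libraries lay far apart from each other. The level of FUT2 was 1.33 ± 0.205 CPM (SD, n = 2) in the high subset, against 0.520 ± 0.555 CPM (n = 2) in the low subset, a log2 fold change of 1.34 (SE 0.49). This value rested on single libraries, since it was 0.52 without ICAM1-low replicate 1 and 3.29 without ICAM1-low replicate 2. FUT2 passed the filter on low counts through both ICAM1-high libraries and 1 ICAM1-low library.

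The balance between these enzymes within a library does not depend on scaling. FUT2 made up 64.7% of the 34 counts of FUT1 and FUT2 together in ICAM1-high replicate 1 (95% exact Clopper-Pearson interval 46.5 to 80.3%). In ICAM1-high replicate 2 it made up 58.7% of 46 counts (43.2 to 73.0%). In ICAM1-low it was 1.39% of 144 counts in replicate 1 (0.169 to 4.93%) and 6.60% of 212 counts in replicate 2 (3.66 to 10.8%). FUT1 thus supplied nearly all H antigen synthase counts in the low subset. In both libraries of the high subset it had fewer counts than FUT2, but both intervals there include an equal share. Per exon length, the share of FUT2 was 70.2 and 64.6% in the high subset, against 1.78 and 8.33% in the low subset.

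**Figure D1:**
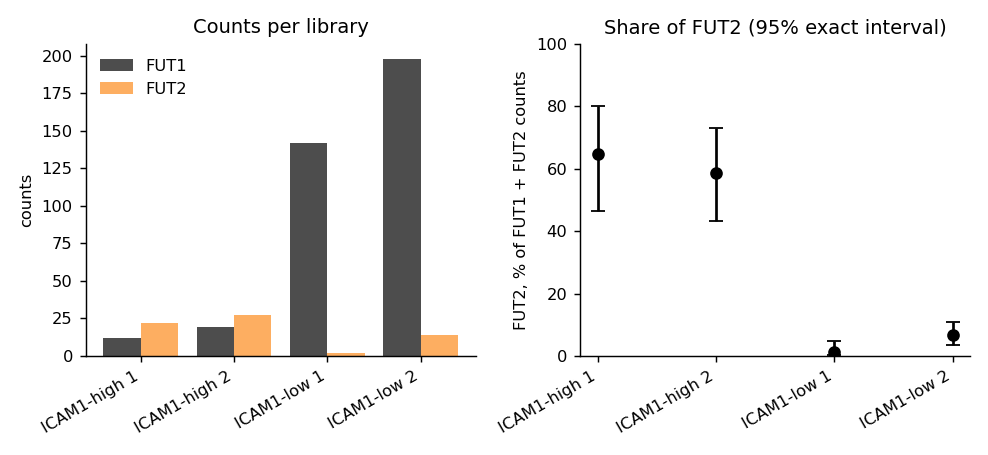
Counts of FUT1 and FUT2 in each library (left; bars start at 0) and the percent of their summed counts that came from FUT2 (right; points with 95% exact binomial intervals, counting error only). FUT2 held 64.7 and 58.7% in the high subset, against 1.39 and 6.60% in the low subset.

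The promoters of this neighbouring pair are shown because the genes lie 42.1 kb apart and differed in opposite directions. The RefSeq table (GRCh38.p14) holds 300 bases for each start, 250 before it and 50 from it on, and lists 2 starts for FUT1 and 1 for FUT2. Capitals mark matches on either strand to the motifs searched: the TATA box (letters TATAAA), the CCAAT box (those letters alone), the GC box (letters GGGCGG) and the C/EBP-ATF composite element (letters TGATGNAA). No match in these windows overlapped another. The sequences read 5′ to 3′ on the strand of the gene.
FUT1, start 1, chr19:48755309-48755608, minus strand: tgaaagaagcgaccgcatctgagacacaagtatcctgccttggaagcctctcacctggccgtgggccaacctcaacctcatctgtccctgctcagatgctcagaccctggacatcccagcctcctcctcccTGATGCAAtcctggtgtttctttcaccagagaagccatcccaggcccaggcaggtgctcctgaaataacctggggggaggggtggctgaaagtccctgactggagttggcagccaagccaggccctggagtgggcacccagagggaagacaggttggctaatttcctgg
FUT1, start 2, chr19:48752592-48752891, minus strand: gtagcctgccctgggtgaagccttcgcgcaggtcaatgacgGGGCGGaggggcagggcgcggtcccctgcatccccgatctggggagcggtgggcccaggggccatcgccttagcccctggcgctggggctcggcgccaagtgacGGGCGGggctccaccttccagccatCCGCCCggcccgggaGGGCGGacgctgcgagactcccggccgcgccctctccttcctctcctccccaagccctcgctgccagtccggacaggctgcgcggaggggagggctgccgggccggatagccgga
FUT2, start 1, chr19:48695721-48696020, plus strand: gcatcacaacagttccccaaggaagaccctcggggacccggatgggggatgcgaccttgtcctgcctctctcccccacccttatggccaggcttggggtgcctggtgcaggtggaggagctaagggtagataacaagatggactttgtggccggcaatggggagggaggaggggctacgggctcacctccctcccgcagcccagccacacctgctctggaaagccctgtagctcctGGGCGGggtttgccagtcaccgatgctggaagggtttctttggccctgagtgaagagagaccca

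The window of FUT1 start 1 held 1 match to TGATGNAA, whose first base lies 119 bases before the start, and no GC box. The window of FUT1 start 2 held 4 GC boxes, with a GC content of 75%, and that of FUT2 held 1 GC box, with a GC content of 62.3%. Of all 35116 promoter windows in the table, 3.62% held TGATGNAA, 45% the GC box, 34.6% the CCAAT box and 11.5% the TATA box. Windows were matched for 11 of the 13 fucosyltransferase genes searched (the 10 genes with FUT5, FUT7 and FUT9), 14 windows in all; FUT5 and FUT10 were not matched. Of these 14 windows, 10 held a GC box, 2 a CCAAT box, 2 TGATGNAA and 0 a TATA box. The other window with TGATGNAA belonged to FUT8. Gene counts do not tell which start was used, so no window can be tied to a difference between the subsets.

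The tested genes around FUT2 and FUT1 went both ways, and more of them fell than rose. RASIP1, which encodes a RAS-interacting protein of endothelial cells, lies between FUT2 and FUT1, 7.29 kb from FUT1. It had 178 and 240 counts in the high subset, against 9 and 11 in the low subset, and rose by 4.11 on the log2 scale (SE 0.26, adjusted p = 2.16e-22 by edgeR's quasi-likelihood test after Benjamini-Hochberg correction). Of the 6 endothelial markers tested, PECAM1, ENG, CDH5 and ERG were higher in the same libraries, where 30.4% of all genes tested were. CDH5 and ERG had passed the filter on low counts through the high subset alone and could hardly come out otherwise. ESAM fell by 0.58 (SE 0.22), and EGFL7, the most abundant, did not pass the test (log2 fold change -0.18, SE 0.09). VWF, KDR, TEK and TIE1 were nearly absent. The part of RNA from endothelial cells in the rise of RASIP1 was not tested. MAMSTR, the nearest gene to FUT2 on that side, had 24 counts in the high subset, against 22 in the low subset (log2 fold change -0.13, SE 0.51). On the far sides, BCAT2, a branched-chain aminotransferase, fell by 0.50 (SE 0.06) and CA11 fell by 0.47 (SE 0.11). Within 100 kb of the stretch from FUT2 to FUT1, 10 other protein-coding genes were tested, of which 2 rose and 6 fell. The other that rose was PLEKHA4 (log2 fold change 2.11, SE 0.11), named after its value was seen. SULT2B1, DBP, HSD17B14 and RPL18, also named after their values were seen, fell too, at log2 fold changes of -0.84, -0.87, -0.72 and -0.20. Over all genes tested, 59.7% were called at an adjusted p under 0.05, 30.4% as higher and 29.4% as lower in the high subset.

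**Figure D2:**
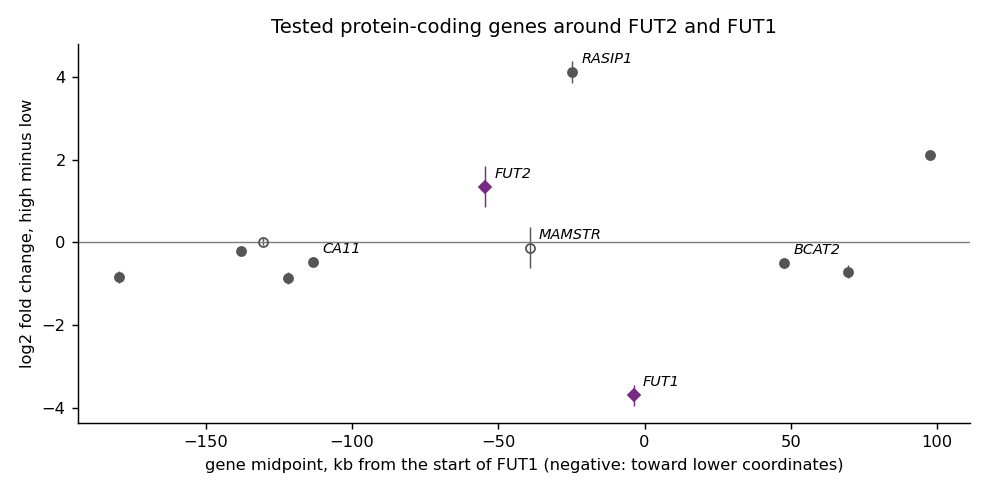
Log2 fold change (ICAM1-high minus ICAM1-low, bars SE) of the tested protein-coding genes around FUT2 and FUT1, by distance of the gene's midpoint from the start of FUT1. Diamonds are FUT1 and FUT2, filled circles genes with an adjusted p under 0.05 and open circles the others. RASIP1 at 4.11 and FUT1 at -3.70 are neighbours among the tested genes.

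The genes of the Lewis antigen enzymes were low or absent, apart from FUT4. FUT3, the Lewis blood group enzyme, had 0 counts in both ICAM1-high libraries and 1 and 0 counts in the low subset. FUT6, which makes sialyl Lewis x in liver and plasma, had 0 and 1 counts in the high subset and 0 in both ICAM1-low libraries. Both genes were under the limit of 3 counts in each library, so no difference could be detected at this depth. FUT5, FUT7, the leukocyte enzyme of selectin ligands, and FUT9 had 0 counts in all 4 libraries, which allows up to 0.161 to 0.196 CPM in each. FUT3, FUT5 and FUT6 are closely related genes in 1 cluster on chromosome 19, and how reads matching more than 1 gene were handled is not stated in the sources used.

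FUT4 (ENSG00000196371, chromosome 11, 94543840 to 94549898), the broadly expressed alpha-1,3 enzyme, thus accounted for nearly all counts of the Lewis group. It had 146 and 154 counts in the high subset, against 86 and 108 in the low subset, without overlap after scaling. Its level was 8.11 ± 0.390 CPM (SD, n = 2) in the high subset, against 6.27 ± 1.09 CPM (n = 2) in the low subset, a log2 fold change of 0.37 (SE 0.17). This value was 0.19 without ICAM1-low replicate 1 and 0.55 without ICAM1-low replicate 2. PIWIL4, which overlaps FUT4 on the same strand, had 9, 8, 6 and 5 counts in the 4 libraries.

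FUT8 (ENSG00000033170, chromosome 14, 65410592 to 65744121), the core fucosyltransferase, had the largest difference in CPM of the 10 genes. It was counted 688 and 673 times in the high subset, against 225 and 246 times in the low subset. The libraries of each subset lay close together, and the subsets far apart. The level of FUT8 was 36.8 ± 0.189 CPM (SD, n = 2) in the high subset, against 15.2 ± 1.17 CPM (n = 2) in the low subset, a 2.42-fold difference (log2 fold change 1.27, SE 0.10). Under the 12 other settings tried, the log2 fold change of FUT8 was between 1.19 and 1.45. The antisense gene FUT8-AS1 had 6 and 15 counts in the high subset, against 5 and 4 in the low subset.

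The protein O-fucosyltransferase genes POFUT1 and POFUT2 differed little between the subsets. POFUT1 (ENSG00000101346, chromosome 20, 32207880 to 32238667) was counted 2907 and 2896 times in the high subset, against 2149 and 2189 times in the low subset. Its level was 157 ± 1.22 CPM (SD, n = 2) against 140.1 ± 3.73 CPM (n = 2), higher by 0.16 on the log2 scale (SE 0.05) in the high subset. POFUT2 (ENSG00000186866, chromosome 21, 45263928 to 45287898) had 493 and 546 counts in the high subset, against 426 and 401 in the low subset. After scaling its libraries overlapped, at 28.1 ± 2.32 CPM (n = 2) and 26.7 ± 0.779 CPM (n = 2). The log2 fold change of POFUT2 was 0.073 (SE 0.091) and turned to -0.0165 without ICAM1-high replicate 2.

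FUT11 and FUT10 act in the endoplasmic reticulum. FUT11 (ENSG00000196968, chromosome 10, 73772291 to 73780251) had 512 and 524 counts in the high subset, against 304 and 315 in the low subset. Its level was 28.0 ± 0.751 CPM (SD, n = 2) in the high subset, against 20.0 ± 0.774 CPM (n = 2) in the low subset (log2 fold change 0.49, SE 0.10). FUT10 (ENSG00000172728, chromosome 8, 33370824 to 33473422) had 217 and 204 counts in the high subset, against 155 and 156 in the low subset. FUT10 was at 11.4 ± 0.378 and 10.0 ± 0.182 CPM (n = 2 each), a log2 fold change of 0.18 (SE 0.14). The start of FUT10 overlaps the end of TTI2 on the same strand, so reads there cannot be told apart, and TTI2 had 249, 248, 234 and 217 counts in the 4 libraries.

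**Figure D3:**
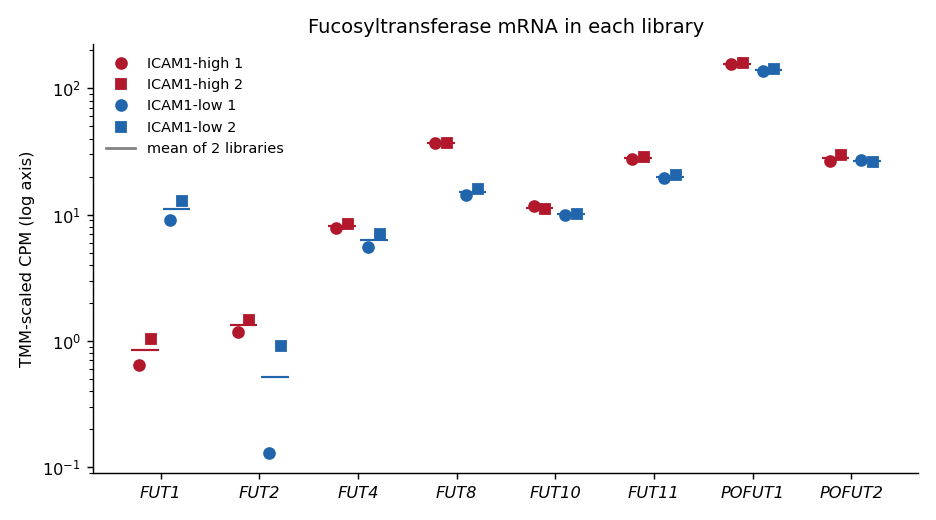
TMM-scaled CPM (log axis) of the 8 fucosyltransferase genes that passed the filter, in each of the 4 libraries, with a line at the mean of 2 libraries. FUT1 is the only one of these 8 with both ICAM1-low libraries above both ICAM1-high libraries. In the other direction, FUT8 shows the widest gap between the libraries of the subsets. The means of FUT2 lie further apart on this axis, but its ICAM1-low libraries spread from 0.128 to 0.913 CPM.

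In the fit across all genes, 4 of the 8 genes (FUT2, FUT8, FUT11 and POFUT1) passed the threshold as higher in the high subset, where 30.4% of all genes tested did, and 1 (FUT1) as lower, where 29.4% did. Since the genes were proposed from this comparison, nothing is read from these counts. Likewise, the libraries of the subsets did not overlap for 7 of the 8, all but POFUT2, beside 78.3% of all genes tested. The median log2 fold change of the 8 was 0.28, beside 0.012 over all 16250 genes tested. With scaling by library size alone, which raised the median of all genes to 0.19, 7 passed as higher and 1 as lower. FUT4 also passed as higher with the filter set to a mean of at least 1 CPM. FUT2 no longer passed with DESeq2, without ICAM1-high replicate 2 or without ICAM1-low replicate 1, and POFUT1 not without ICAM1-low replicate 1.

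Levels of different genes were compared as CPM per kb of exon sequence. On this scale POFUT1 led in every library, with 24.4 ± 0.189 CPM per kb (SD, n = 2) in the high subset, against 21.8 ± 0.581 CPM per kb (n = 2) in the low subset. In ICAM1-high it was followed by FUT11 at 5.70 ± 0.153, FUT8 at 5.49 ± 0.0282, POFUT2 at 4.79 ± 0.396, FUT10 at 2.03 ± 0.0674, FUT4 at 1.34 ± 0.0644, FUT2 at 0.392 ± 0.0606 and FUT1 at 0.193 ± 0.0636 CPM per kb. No neighbours in this order overlapped between libraries, except FUT6 and FUT3 at its end. In ICAM1-low the order after POFUT1 was POFUT2 at 4.55 ± 0.133, FUT11 at 4.07 ± 0.158, FUT1 at 2.53 ± 0.623, FUT8 at 2.27 ± 0.174, FUT10 at 1.79 ± 0.0325, FUT4 at 1.03 ± 0.180 and FUT2 at 0.154 ± 0.164 CPM per kb. FUT1 and FUT8 overlapped there and cannot be ordered, nor can FUT3 and FUT6. FUT1 thus stood above FUT10, FUT4 and FUT2 in the low subset and below them in the high subset. With the longest transcript in place of all exons, the order in the high subset stayed the same, but 5 of the 10 genes changed place in the low subset. FUT11 then stood above POFUT2 there, at 8.30 against 5.53 CPM per kb, as in the high subset. FUT1 was sixth in the low subset, at 2.59 CPM per kb against 2.63 for FUT10. The order of these genes in the low subset thus depends on the length used.

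As a share of the summed level per kb of the family, POFUT1 held 54.6 to 55.5% in the high subset, against 56.3 to 57.9% in the low subset. FUT8 held 12.2 and 12.6% in the high subset, against 5.81 and 6.07% in the low subset. FUT1 held 0.339 and 0.530% in the high subset, against 5.66 and 7.53% in the low subset. Of the shares in the family, those of FUT8 and FUT1 differed most between the subsets, in opposite directions.

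**Figure D4:**
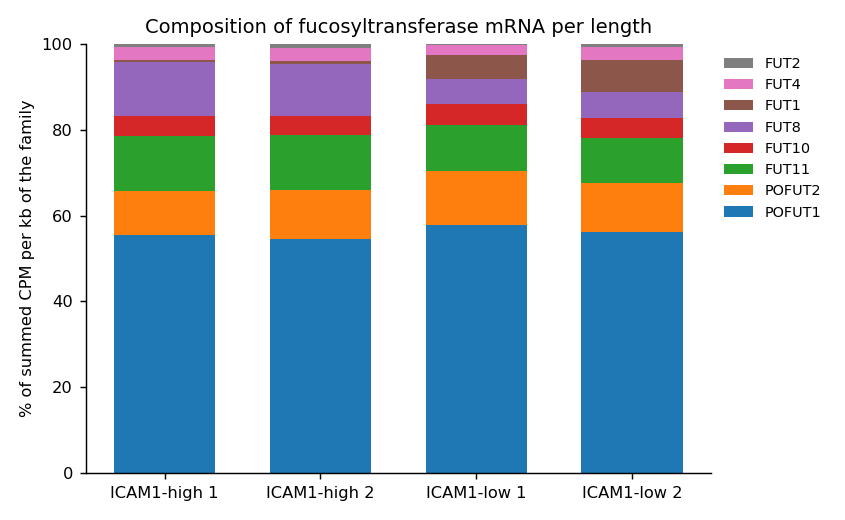
Percent of the summed CPM per kb of all fucosyltransferase genes that each gene held in each library (stacked bars; FUT3 and FUT6, under 0.1% each, are not drawn). The FUT8 segment is 12.2 and 12.6% in the high subset, against 5.81 and 6.07% in the low subset, and the FUT1 segment shrinks from 5.66 and 7.53% in the low subset to 0.339 and 0.530% in the high subset.

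Genes that supply or share substrates with these enzymes were tested, 55 in 5 lists, of which 51 passed the filter. In ICAM1-high, 22 of the 51 rose (30.4% of all genes tested did) and 12 fell (29.4% did), with a median log2 fold change of 0.22. Of the rises, MAN1C1 and B3GNT4 had passed the filter through the high subset alone; without them 20 of 49 rose and 12 fell, with the same rounded median. With scaling by library size alone 31 rose and 7 fell, so that the share of rises among calls was 81.6% in place of 64.7%. Adjusted p-values of these genes are from edgeR's quasi-likelihood test with Benjamini-Hochberg adjustment over all genes.

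The supply of GDP-fucose was mixed (median log2 fold change 0.15). Of its 12 genes 6 rose, beside 30.4% of all genes tested, and 3 fell, beside 29.4%. The enzymes of the route from GDP-mannose were GMDS, at 15.6 ± 0.487 CPM in the high subset, against 17.8 ± 1.06 CPM in the low subset (log2 fold change -0.19, adjusted p = 0.131), and GFUS, which rose by 0.26 (adjusted p = 0.00171). The salvage enzymes FCSK (-0.18, adjusted p = 0.111) and FPGT (0.074, adjusted p = 0.644) did not pass the test, while FUOM, a fucose mutarotase, rose by 1.13 (SE 0.23, adjusted p = 2.6e-05). GMPPB, which makes GDP-mannose, rose from 13.0 ± 0.817 to 26.6 ± 2.69 CPM (a log2 difference of 1.03, SE 0.11), and PMM1, a phosphomannomutase, fell by 0.95 (SE 0.12). The Golgi GDP-fucose transporter gene SLC35C1 rose by 0.45 (SE 0.07, adjusted p = 3.5e-07) and its relative SLC35C2 fell by 0.38 (SE 0.06, adjusted p = 5.53e-07). Of the fucosidase genes, which remove fucose, FUCA2 fell by 0.18 (adjusted p = 0.0042), a call lost with scaling by library size alone and without ICAM1-low replicate 1, and FUCA1 did not pass the test (-0.081, adjusted p = 0.609).

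Of 7 genes that extend O-fucose or add O-glucose to the same kinds of repeats, 4 rose and 1 fell (median log2 fold change 0.23). Rises made up 30.4% and falls 29.4% of all genes tested. LFNG, the Fringe enzyme that extends O-fucose on Notch, had 97 and 89 counts in the high subset, against 17 and 12 in the low subset, and rose by 2.42 (SE 0.29, adjusted p = 7.44e-11). Its relatives were MFNG, at a log2 fold change of -0.30 (adjusted p = 0.424), and RFNG, which fell by 0.24 (adjusted p = 0.0358). The O-glucosyltransferase genes POGLUT3 and POGLUT2 rose by 0.73 and 0.71, and POGLUT1 by 0.23 (adjusted p = 0.0413). The calls of RFNG and POGLUT1 were lost under 4 and 5 of 12 other settings. B3GLCT, which extends the O-fucose added by POFUT2, did not pass the test (-0.14, adjusted p = 0.374).

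Among 10 tested genes of N-glycan trimming and branching, the steps around core fucosylation by FUT8, 5 rose and 1 fell (median log2 fold change 0.43). Without MAN1C1, 4 of 9 rose. Over all genes tested, 30.4% rose and 29.4% fell. MGAT1, which makes the glycan that FUT8 acts on, rose by 0.22 (SE 0.06, adjusted p = 5e-04). MGAT5, the enzyme of the beta-1,6 branch, was at 190.2 ± 10.6 CPM in the high subset, against 85.4 ± 2.04 CPM in the low subset (log2 fold change 1.16, SE 0.05, adjusted p = 4.19e-30). The mannosidase gene MAN1A1 had 169 and 198 counts in the high subset, against 18 and 5 in the low subset, and rose by 3.73 (SE 0.27), by 4.89 without ICAM1-low replicate 1 and by 3.09 without ICAM1-low replicate 2. MAN1A2 rose by 0.64 and MAN2A1 fell by 0.53. MAN1C1 had 40 counts in the high subset, against 0 in the low subset, at least 11.2-fold higher against 3 counts over the subset, but it passed the filter through ICAM1-high alone, so that it could hardly come out equal.

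Genes that build and cap the chains carrying H and Lewis antigens went both ways, with 7 of 20 rising, beside 30.4% of all genes tested, and 6 falling, beside 29.4%, which is near the background (median log2 fold change 0.18). Without B3GNT4, which had 34 counts in the high subset, against 11 in the low subset, and passed the filter through the former alone, 6 of 19 rose (median 0.15). B3GNT5, which starts lacto-series glycolipids, fell from 22.2 ± 1.85 to 9.77 ± 1.67 CPM (adjusted p = 1.63e-13), a log2 fold change of -1.18 with an SE of 0.12. B3GALT5, which makes type 1 chains, rose by 0.98 (SE 0.19, adjusted p = 1.01e-05), and GCNT1, the core 2 branching enzyme, by 1.13 (SE 0.31, adjusted p = 0.00106), a call lost without ICAM1-low replicate 1. The sialyltransferase genes, whose products cap such chains, went both ways. ST3GAL4, ST3GAL3 and ST3GAL2 rose by 0.88 (SE 0.10), 1.11 (SE 0.30) and 0.63 (SE 0.07). In contrast, ST3GAL6 fell by 0.87 (SE 0.20, adjusted p = 1.35e-04) and ST3GAL1 fell by 0.63 (SE 0.05, adjusted p = 4.45e-18). ABO, the blood group transferase that acts on the H antigen, had 0 counts in all 4 libraries, which allows up to 0.161 to 0.196 CPM in each.

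**Figure D5:**
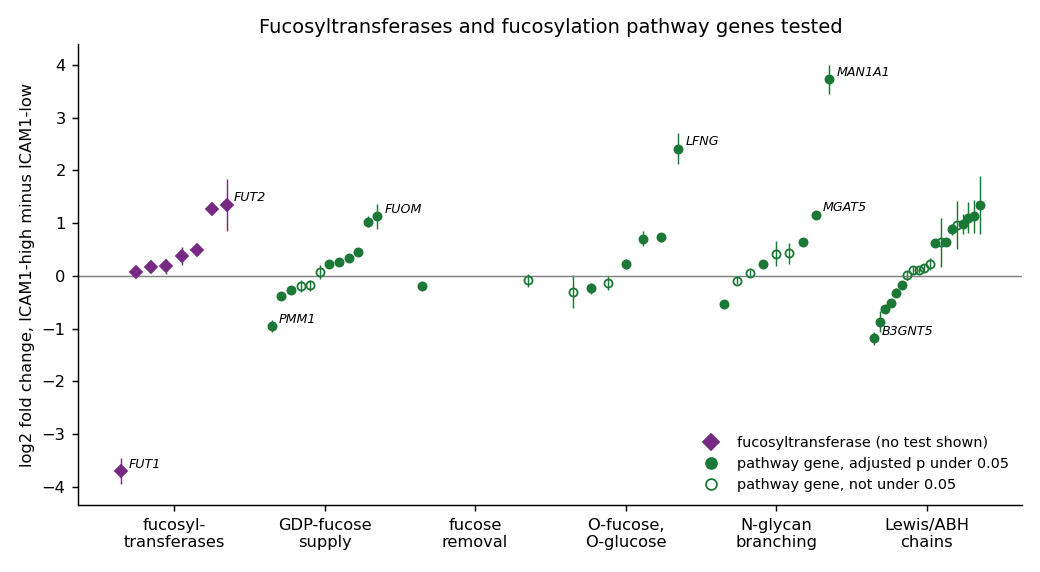
Log2 fold change (ICAM1-high minus ICAM1-low, bars SE) of the 8 fucosyltransferase genes in the fit (diamonds, no test shown) and of the tested genes of 5 pathway lists (circles, filled where the adjusted p was under 0.05). MAN1C1, with 0 counts in the low subset, is left out. FUT1 at -3.70 lies below all pathway genes drawn, of which B3GNT5 is the lowest at -1.18.

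The nearest tested protein-coding genes on either side of the 10 genes numbered 18, of which 6 rose and 6 fell and 6 did not pass the test, 12 in all where 59.7% of all genes tested were called. SEC24C, a coat protein gene 0.13 kb from FUT11, rose by 0.50 (SE 0.06, adjusted p = 9.52e-11), and CHCHD1 on its other side did not pass the test (-0.12, adjusted p = 0.262). Beside POFUT1, PLAGL2 was at 0.10 (adjusted p = 0.255) and KIF3B at -0.020 (adjusted p = 0.779). Beside FUT8, MAX fell by 0.20 and GPHN rose by 0.36. Beside POFUT2, the RNA editing enzyme gene ADARB1 rose by 2.02 and COL18A1 fell by 0.23. Beside FUT4, ANKRD49 rose by 0.30 (adjusted p = 0.0463) and AMOTL1 fell by 0.21. Beside FUT10, NRG1, an ERBB receptor ligand, fell by 1.75, and TTI2 did not pass the test (-0.12, adjusted p = 0.419). FUT3 and FUT6 share their tested neighbours DUS3L, which rose by 0.57, and NDUFA11 (0.25, adjusted p = 0.244).

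The protein-coding genes whose pattern over the 4 libraries was most like that of FUT1 were ULBP1, RAB39B, EREG, GDF15 and ADM2. Likeness was the Euclidean distance between log2 CPM values, each gene centred on its own mean, among 10639 genes detected in all 4 libraries that averaged 5 CPM or more. The distances were 0.584, 0.883, 0.963, 1.03 and 1.03, and the log2 fold changes -3.78, -2.88, -3.09, -2.88 and -2.79. With 2 libraries in each of 2 subsets, this measure mostly ranks genes by their difference between the subsets.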

How the data were processed

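The deposited table, made by the authors, lists raw counts, whole numbers without normalization, for the 4 libraries, whose columns were assigned through the sample descriptions. FastQC 0.10.1 and GRCh38 appear in the submitters' processing notes; no aligner, counting program or strand setting is stated in the sources used. Per the labels' protocols, Trizol was used for RNA and a SMARTER mRNA-seq kit for the libraries. Of 58735 identifiers, all were in GENCODE release 29 (positions, exon lengths) and 58207 were given a symbol from a reference table.

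Counts were compared with edgeR 4.0.16 (R 4.3.3): TMM scaling, the default filter (minimum count 10, minimum total 15), robust quasi-likelihood test, Benjamini-Hochberg adjustment over all 16250 genes, threshold 0.05. The test was first checked on simulated counts. Libraries of a subset differed by more than sampling noise (chi-square per degree of freedom 2.88 and 1.82). Alternatives were DESeq2 1.42.0, limma-voom (limma 3.58.1), other scalings and filters, a replicate block, and omission of each library or of mitochondrial and ribosomal protein genes; omission of genes that passed the filter in 1 subset only was added after seeing the data.

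The 10 genes, lists and tests were chosen with earlier results of these data known. Named genes were the 10 genes, FUT5, FUT7, FUT9, ICAM1, the 3 genes deleted in A549, the most abundant markers of other cell types, pathway genes with 0 counts, the nearest tested neighbours of the 10, the 5 genes most like FUT1, and up to 5 called genes per list with the largest change and a mean of at least 1 CPM. GMDS, GFUS, FCSK, FPGT, FUCA1, MFNG, B3GLCT, B3GNT4, ST3GAL1, ST3GAL6, PLEKHA4, MAN1C1 and the other markers were named for their roles or counts after their values were seen. SULT2B1, DBP, HSD17B14, RPL18 and ST3GAL2 were likewise named after their values were seen.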

Additional observations from a re-analysis of the deposited data

How the results depend on the processing

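Over all genes, 4935 were higher and 4771 lower in ICAM1-high. With scaling by library size only, 6735 were higher and 3124 lower, and of the pathway genes 31 were higher and 7 lower in place of 22 and 12; the higher share of all calls was then 68.3% in place of 50.8%. Omission of each library in turn gave 4235 to 4535 higher and 4115 to 4621 lower genes, and 19 to 26 higher and 9 to 13 lower pathway genes; a lone library is then assumed to vary like the other subset. With the replicate number as a block, 4976 were higher and 4836 lower. The deviations of same-numbered libraries correlated at 0.044, so no strong shared effect of the number was seen. Whether same-numbered libraries were sorted together cannot be told from this value. Of 252 values of the 21 named pathway genes under 12 alternatives, 240 kept direction and call, 12 lost the call and 0 reversed. These genes were named because they were called, with the largest changes of their lists, and most alternatives reuse the same 4 libraries. A high share kept was thus largely set in advance and does not cover the other pathway genes. Of the 8 fucosyltransferase genes fitted, POFUT2 alone changed sign, to -0.0165 without ICAM1-high replicate 2 (0.1482 without ICAM1-high replicate 1); the cause was not tested. The range was -4.08 to -3.41 for FUT1 and 0.52 to 3.29 for FUT2, which has 16 counts in ICAM1-low and is limited by depth. FUT2 was not tested with a mean of at least 1 CPM.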
